A study of Homo sapiens with 6 samples.

Results

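Interferon-stimulated genes (ISGs) are the genes that a cell switches on when it senses an interferon. A set of 39 of them was taken by gene name from the table of HMV-II libraries: 37 had a row among its 30015 genes and 30 passed the minimum for testing, a mean of 10 normalized counts. The expression of the other 2, MX1 and XAF1, was not analysed here. HMV-II is an established human mucosal melanoma line, labelled as vaginal. RNA was taken from 3 libraries labelled Vector and 3 labelled shEZH2, in which EZH2, the methyltransferase subunit of Polycomb repressive complex 2, was knocked down, and the cells were given no other treatment. According to the study's methods, both groups were lentivirally transduced and selected with puromycin, the control with a scrambled shRNA and the knockdown with an shRNA against EZH2. The table heads the knockdown group sh1, so the comparison rests on a single cell line and, as far as that heading shows, on 1 shRNA. It asks how these genes stood in cells with less EZH2.

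Type I and type III interferons bind receptors on the cell surface, and receptor-bound kinases pass the signal to transcription factors. STAT2 and IRF9 are subunits of the complex ISGF3, which binds the interferon-stimulated response element (ISRE) in promoters of ISGs, whereas interferon gamma acts at the gamma-activated site (GAS). The products of the ISGs sense foreign nucleic acids, block viruses at entry, translation and release, and limit the signal itself. In melanoma these genes are known as a read-out of tumour cells that respond to interferon from infiltrating lymphocytes.

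The sequence that ISGF3 binds was looked for in the promoters first. The ISRE-like core was written as GAAA, any 2 bases and GAAA again, on either strand, from 250 bases before to 50 bases after each start of transcription in RefSeq (GRCh38.p14). Promoters were found for 30 of the 39 genes. The ISRE-like core lay in those of 22 genes (73.3%), and 14 held at least 2 copies counted over overlapping matches, while 4.38% of the 27305 genes with a promoter in the same table held one. The GAS core, TTCNNNGAA, lay in 10 of the 30 (33.3%) against 9.38% of all genes. The windows below are read on the strand of the gene, with the ISRE-like matches in capitals (TTTC stands for the core on the other strand). They are shown for the genes that differed most between the groups, and IFIT1 and ISG15 for comparison.
IFI6, chr1:27672261-27672363, minus strand: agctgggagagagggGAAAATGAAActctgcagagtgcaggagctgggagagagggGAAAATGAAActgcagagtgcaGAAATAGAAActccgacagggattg
BST2, chr19:17405730-17405775, minus strand: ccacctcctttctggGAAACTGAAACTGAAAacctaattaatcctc
IFITM3, chr11:320871-320927, minus strand: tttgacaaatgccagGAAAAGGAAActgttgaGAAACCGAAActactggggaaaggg
IFI44, chr1:78649756-78649788, plus strand: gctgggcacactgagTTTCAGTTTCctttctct
SAMD9, chr7:93118091-93118130, minus strand: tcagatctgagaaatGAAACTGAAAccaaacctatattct
ISG20, chr15:88638932-88638971, plus strand: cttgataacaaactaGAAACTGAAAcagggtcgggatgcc
DDX60, chr4:168318781-168318855, minus strand: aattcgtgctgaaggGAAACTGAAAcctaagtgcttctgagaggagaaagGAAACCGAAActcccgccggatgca
PARP14, chr3:122680795-122680834, plus strand: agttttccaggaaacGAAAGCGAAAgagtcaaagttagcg
IFIT1, chr10:89392492-89392544, plus strand: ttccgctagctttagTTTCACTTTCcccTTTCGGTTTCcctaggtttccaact
ISG15, chr1:1013369-1013414, plus strand: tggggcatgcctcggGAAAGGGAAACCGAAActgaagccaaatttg
Promoters of USP18, TRIM22, IFITM2, TMEM173, IRF7 and IFIT2 were not analysed here.

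Sequencing depth ranged from 13400290 to 15923029 counted reads in Vector and from 16129171 to 19128939 in shEZH2. A normalized count is the number of reads on a gene divided by a size factor of the library, and 1 read was worth 0.799 to 1.16 normalized counts. Values of single libraries are always listed in the order of replicates 1, 2 and 3. Vector replicate 2 stood apart from the other Vector libraries. Relative to the mean of Vector replicates 1 and 3, its median gene was 0.54 lower on the log2 scale in the shortest 20% of genes and 0.42 higher in the longest 20%. A smaller trend with length was seen in shEZH2 replicate 1. Relative to the other shEZH2 libraries, its median gene was 0.17 higher in the shortest 20% and 0.18 lower in the longest 20%. In the 7 tested ISGs shorter than 2000 bases, Vector replicate 2 lay a median of 0.80 log2 units below Vector replicates 1 and 3, against 0.15 below them in the 23 longer ones. Among the longer genes, TRIM22, IFIT2, IRF1 and ISG20 lay lowest, at -1.24, -1.20, -1.03 and -0.91. The median log2 fold change between the groups was 0.60 in the 7 short ISGs and 0.42 without Vector replicate 2, and 0.02 and 0.03 in the longer ones. Of the 7, BST2 and IFITM2 passed the minimum only through their shEZH2 values. Their fold changes, 1.60 and 1.63, were the highest of the 30 genes and raise the median of the short ones. Vector replicate 2 was the lowest Vector library in 18 of the 30 genes and the highest in 9. The log2 fold change of each tested ISG is therefore also given without this library, and its part in the differences was not tested beyond that.

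**Figure D1:**
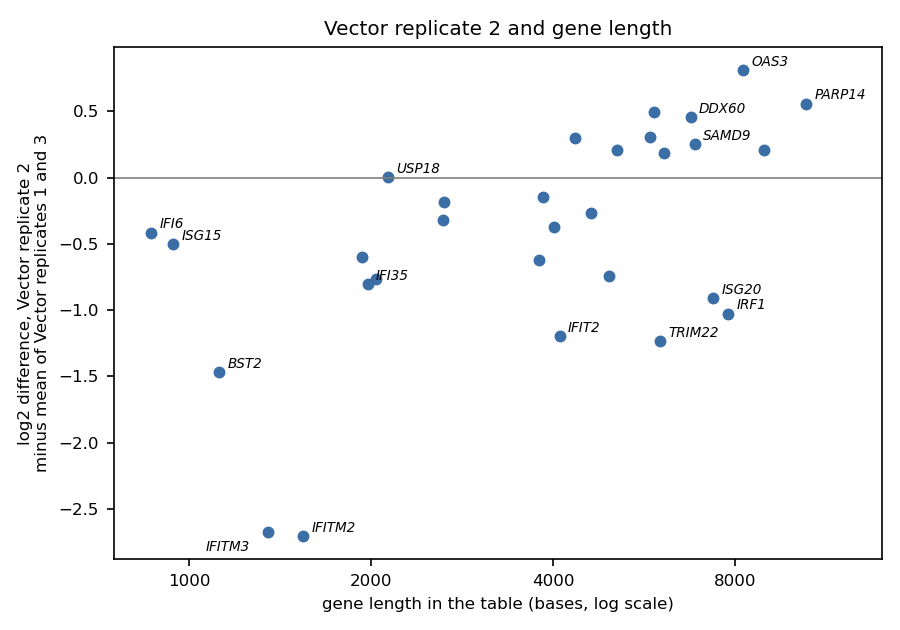
Departure of Vector replicate 2 from the mean of Vector replicates 1 and 3 (log2 units, y axis) against the gene length in the table (bases, log axis) for the 30 tested ISGs, 1 point per gene. IFITM2 and IFITM3 lie lowest, at -2.70 and -2.67, while the long genes OAS3 and PARP14 lie above 0, at 0.81 and 0.56, and Spearman's rho across the 30 genes was 0.53.

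EZH2 itself (chromosome 7) had 483, 437 and 552 normalized counts in the Vector libraries and 237, 247 and 225 in the shEZH2 libraries. All 3 shEZH2 libraries lay below all 3 Vector libraries. It differed by -1.04 ± 0.14 (log2 fold change ± SE), with an adjusted p of 0.0142 by limma, and it was -1.12 without Vector replicate 2. In an exact two-sided permutation test the p was 0.1, which is the smallest that 3 libraries against 3 allow.

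At the threshold of the study, an unadjusted p under 0.05 with at least a 1.5-fold change (0.585 on the log2 scale), 5 of the 30 tested ISGs were higher in shEZH2 and 2 were lower, and 23 were not called. Among all 15251 genes tested, 7.55% were called higher and 7.07% lower (14.6% together, against 23.3% of the ISGs). BST2 entered the test only through its shEZH2 values, and without it 4 of 29 ISGs were higher and 2 lower. Without Vector replicate 2 the ISGs called were 2 higher (USP18 and BST2) and 1 lower (ISG20), beside 7.05% and 5.64% of all genes, or 1 and 1 without BST2. With all libraries the 5 higher genes were USP18, BST2, TRIM22, IFI44 and IFI6, and the lower ones were ISG20 and SAMD9. Only USP18 had an adjusted p under 0.05 by limma, a call that 4.12% of all genes reached in either direction. Without Vector replicate 2, 5 ISGs reached it, beside 18.9% of all genes: USP18, IFITM3 and TMEM173 were higher, and ISG20 and SAMD9 lower. Vector and shEZH2 libraries were fully separated in 11 of the 30 ISGs (7 higher, BST2 among them, and 4 lower), or 36.7%, against 34.8% of all genes. The median log2 fold change of the 30 ISGs was 0.14 beside 0.04 for all genes tested, and 0.05 beside -0.01 without Vector replicate 2. Because these are bulk libraries, fewer cells with a transcript and less of it per cell cannot be told apart.

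**Figure D2:**
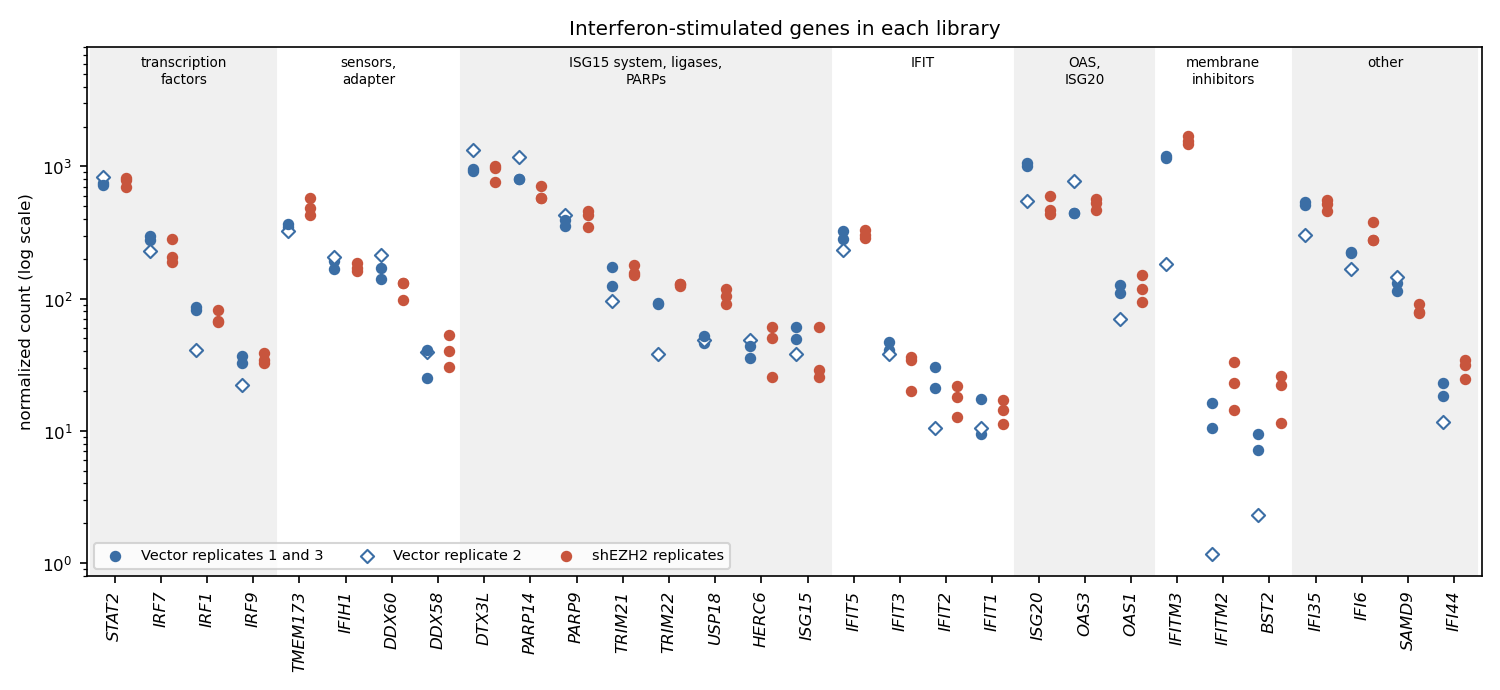
Normalized counts (log axis) of the 30 tested ISGs in each library, by role, with Vector replicates 1 and 3 as filled blue circles, Vector replicate 2 as an open diamond and shEZH2 replicates as red circles. USP18 shows 3 tight Vector points below 3 shEZH2 points, whereas IFITM3 has 1 Vector library at 183, far below the other 2.

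Of the 4 transcription factors that carry the interferon signal, 0 were called and 0 had an unadjusted p under 0.05, by limma as used throughout, by DESeq2 or by edgeR. STAT2, the subunit of ISGF3 that activates transcription, had 747, 831 and 719.8 normalized counts in the Vector libraries and 811, 701 and 795 in the shEZH2 libraries. IRF7, the factor that amplifies interferon alpha production, had 279, 231 and 296 in Vector and 281, 188 and 208 in shEZH2, and IRF1, an activator induced mainly by interferon gamma, had 81.6, 40.7 and 86.5 in Vector and 81.9, 67.1 and 67.8 in shEZH2. In all 3 the groups overlapped, and for IRF1 the libraries other than Vector replicate 2 lay between 67.1 and 86.5. The log2 fold changes were 0.01, -0.26 and 0.12, and without Vector replicate 2 they were 0.07, -0.37 and -0.22, so that the sign of IRF1 turned. With all libraries the 95% confidence intervals reached from -0.31 to 0.32 for STAT2 and from -0.72 to 0.19 for IRF7. The unadjusted p of IRF7 by limma was 0.0476 without Vector replicate 2 and 0.0172 with the gene length trend removed, at -0.48, but neither fit called it. IRF9, the DNA-binding subunit of ISGF3, was lower in level, at 22.1 to 39.04 normalized counts, with a log2 fold change of 0.23, or 0.03 without Vector replicate 2. Per kilobase of gene, STAT2 was at 125 normalized counts in Vector and 126 in shEZH2, the 5th highest level of the 37 ISGs.

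Among the sensors of foreign nucleic acid, TMEM173, which encodes the adapter STING on the endoplasmic reticulum, had 345, 323 and 369.6 normalized counts in the Vector libraries and 582, 426 and 482 in the shEZH2 libraries. Each shEZH2 library was above each Vector library, and Vector replicate 2 was close to the other Vector libraries. With a log2 fold change of 0.51 ± 0.16 and an adjusted p of 0.118 (limma), it missed the fold threshold, and it came to 0.46 with an adjusted p of 0.0375 without Vector replicate 2. Without shEZH2 replicate 2 it was 0.62 and passed. DDX60, a helicase that has been linked to sensing of viral RNA, lay on the other side, with 140.1, 212 and 170.0 in Vector and 98.1, 131 and 131 in shEZH2. The groups did not overlap in this gene either, yet the change of -0.53 ± 0.21 was below the fold threshold and shrank to -0.37 without Vector replicate 2, whereas it was -0.67 and passed without Vector replicate 1. IFIH1, the sensor MDA5 of long double-stranded RNA, had 192, 207 and 168 in Vector and 163, 186 and 169.9 in shEZH2, with overlapping groups and a log2 fold change of -0.13, or -0.06 without Vector replicate 2. DDX58, the sensor RIG-I of short RNA ends, ranged from 25.1 to 52.7 normalized counts over the 6 libraries, with a log2 fold change of 0.22, or 0.32 without Vector replicate 2.

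The clearest difference of all ISGs was in the ISG15 system, which attaches the ubiquitin-like protein ISG15 to other proteins. USP18 (ENSG00000184979, chr22:18149899-18177397 of GRCh38, plus strand), the protease that removes ISG15 again and also blocks signalling at the type I interferon receptor, had 46.01, 48.9 and 51.9 normalized counts in the Vector libraries and 90.5, 118 and 104 in the shEZH2 libraries. Every shEZH2 library was higher than every Vector library, and the 3 Vector libraries lay within 6 normalized counts of each other, Vector replicate 2 included. The log2 fold change was 1.07 ± 0.19 (SE), a 2.10-fold difference on the scale of log2(normalized count + 1), with an adjusted p of 0.0274 by limma. USP18 stayed past the study's threshold in all 17 other fits, from 0.81 to 1.17 on the log2 scale and at 1.07 without Vector replicate 2, and its adjusted p ran from 0.000972 to 0.171. ISG15, the modifier that USP18 removes, had 49.1, 38.4 and 61.1 in Vector and 60.9, 25.6 and 28.6 in shEZH2. Its groups overlapped, and shEZH2 replicate 1 alone lay at the level of the highest Vector library. Its log2 fold change of -0.44 ± 0.37 was not called and was -0.61 without Vector replicate 2, but without shEZH2 replicate 1 it was -0.82 and called lower. HERC6, a relative of the ligase HERC5 that joins ISG15 to its targets, lay at 25.7 to 61.1 normalized counts, with a log2 fold change of 0.02, or 0.12 without Vector replicate 2.

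Of the ubiquitin ligases, TRIM22 (ENSG00000132274, chr11:5689689-5737089, plus strand), an interferon-induced ligase that restricts viral transcription, had 90.98, 38.4 and 92.7 normalized counts in the Vector libraries and 125, 129 and 129 in the shEZH2 libraries. The shEZH2 libraries lay close together above every Vector library, and Vector replicate 2 lay far below the other 2 Vector libraries. The log2 fold change of 0.88 ± 0.34 (unadjusted p = 0.0325, adjusted p = 0.178, limma) fell to 0.47 without Vector replicate 2, under the fold threshold, and without shEZH2 replicate 1, 2 or 3 it was 0.90, 0.87 or 0.88 with an unadjusted p above 0.05. TRIM22 shares 47401 bases with TRIM5 on the other strand, and as the strand setting of the counting is not given in the sources used here, reads of the pair may not be separable. TRIM21, the cytosolic antibody receptor and ligase, had 124, 96.6 and 174 in Vector and 181, 150.1 and 157 in shEZH2. Its groups overlapped, with a log2 fold change of 0.34 that was 0.14 without Vector replicate 2.

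The ADP-ribosyltransferase PARP14, which modifies proteins in macrophage and interferon signalling, had 797, 1181 and 807 normalized counts in the Vector libraries and 577, 713 and 578 in the shEZH2 libraries. All shEZH2 libraries were below all Vector libraries, and Vector replicate 2 was the highest. This came to a log2 fold change of -0.56 ± 0.19 (adjusted p = 0.146, limma), just inside the fold threshold and not called. It was -0.37 without Vector replicate 2, but DESeq2 and edgeR with RLE or upper-quartile factors called it lower, at -0.60, -0.60 and -0.62, as did limma without Vector replicate 1 or 3 or shEZH2 replicate 2, at -0.66, -0.65 and -0.66. PARP9 and DTX3L encode partners that form a complex of a PARP and a ubiquitin ligase. They start from opposite strands on chromosome 3 and share 340 bases. DTX3L had 923, 1323 and 956 in Vector and 766, 1005 and 973 in shEZH2, and PARP9 had 353, 429.6 and 390.0 in Vector and 348, 458 and 429 in shEZH2. In both the groups overlapped, with log2 fold changes of -0.21 and 0.07, or -0.05 and 0.14 without Vector replicate 2.

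The IFIT proteins, which bind viral RNA that lacks the host cap structure, were mostly at low levels. IFIT5 was the exception, with 280.2, 233 and 324 in Vector and 289, 332 and 301 in shEZH2 and a log2 fold change of 0.15, or 0.03 without Vector replicate 2. IFIT3 had 40.8, 38.4 and 46.8 in Vector and 19.996, 34.3 and 36.3 in shEZH2. All shEZH2 libraries of IFIT3 were lower than all Vector libraries, but the difference of -0.50 ± 0.29 did not pass the test (adjusted p = 0.334, limma), and it was -0.56 without Vector replicate 2. IFIT1 and IFIT2 lay between 9.41 and 30.6 normalized counts in all libraries, with log2 fold changes of 0.21 and -0.13, or 0.12 and -0.53 without Vector replicate 2. IFIT1, IFIT2 and IFIT3 lie within the bounds of LIPA of the opposite strand, whose mean was 1005 normalized counts, and reads of these overlaps may not be separable. The IFIT genes are also related in sequence, and how reads that match several of them were treated is not given in the sources used here.

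In the group of nucleases and RNA synthases, ISG20 (ENSG00000172183, chr15:88636153-88656483, plus strand), an interferon-induced exonuclease that degrades RNA, was called lower in shEZH2. It had 1056, 551 and 1014 normalized counts in the Vector libraries and 593, 469.5 and 438 in the shEZH2 libraries. Vector replicate 2 lay below shEZH2 replicate 1, so that the groups overlapped, while the other 2 Vector libraries lay far above all shEZH2 libraries. On the log2 scale it was lower in shEZH2, with a fold change of -0.76 ± 0.27 (unadjusted p = 0.0238, adjusted p = 0.153, limma). Without Vector replicate 2 it was -1.06 with an adjusted p of 0.000183, and without Vector replicate 1 or 3 or shEZH2 replicate 2 or 3 the call was lost, at -0.59, -0.62, -0.72 and -0.67. 

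The OAS enzymes make the oligoadenylate messenger that activates the nuclease RNase L. OAS3, the largest of them, had 447, 778 and 441 in Vector and 471, 530.2 and 569 in shEZH2. Vector replicate 2 exceeded all other libraries, and the log2 fold change of -0.04 turned to 0.23 without it, with an unadjusted p of 0.0788 by limma. OAS1 had 109.8, 69.9 and 126 in Vector and 119, 95.03 and 151 in shEZH2, with overlapping groups and a log2 fold change of 0.27 that came to 0.02 without Vector replicate 2. OAS2 and OASL were under the minimum, at 0 to 8.15 normalized counts in the 6 libraries, and were not tested.

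The 3 tested membrane proteins that block virus entry and release had the largest fitted differences and also the largest departures of Vector replicate 2. BST2 and IFITM2 among them passed the minimum only through their shEZH2 values, so this order is in part set by the minimum. IFITM3 (ENSG00000142089, chr11:319669-327537, minus strand), which traps entering viruses in endosomes, was the most abundant ISG per kilobase by the mean of all libraries. Its group means per kilobase were 624 normalized counts in Vector and 1167 in shEZH2. In Vector replicate 2 alone IFITM3 was at 136 per kilobase, under DTX3L at 225, IFI6 at 192 and others. It had 1191, 183 and 1148 normalized counts in the Vector libraries and 1698, 1466 and 1555 in the shEZH2 libraries. All shEZH2 libraries were above all Vector libraries, and Vector replicate 2 lay far below the other 2 Vector libraries. The fitted log2 fold change of 1.31 ± 0.66 was not called, with an adjusted p of 0.277 by limma. Without Vector replicate 2 it was 0.42 with an adjusted p of 0.0130, so the size of the difference depended on that library. Without Vector replicate 1 or 3 it reached 1.77 or 1.75 and passed the threshold, and with no minimum or with the replicate block it passed at 1.31.

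BST2 (ENSG00000130303, chr19:17402939-17405648, minus strand), the tetherin that holds budding virions on the cell surface, was called higher from few counts. It had 9.41, 2.33 and 7.13 normalized counts in the Vector libraries and 11.4, 22.4 and 25.8 in the shEZH2 libraries. Every shEZH2 library was above every Vector library, and the gene passed the minimum of a mean of 10 only through its shEZH2 values, as did IFITM2. Its log2 fold change was 1.60 ± 0.55 (unadjusted p = 0.0209, adjusted p = 0.144, limma) and 1.11 without Vector replicate 2. Without shEZH2 replicate 2 or 3 it was 1.48 or 1.38, with an unadjusted p above 0.05.

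IFITM2, the close relative of IFITM3, had 10.5, 1.16 and 16.3 in Vector and 33.3, 23.2 and 14.3 in shEZH2. Its groups overlapped, and the log2 fold change of 1.63 ± 0.77 was not called and came to 0.73 without Vector replicate 2. It passed without Vector replicate 3, at 2.23, and with no minimum, at 1.63. IFITM1 lies within the bounds of IFITM2 on the same strand, over 1767 bases, and the IFITM genes are near-identical in part, so the division of reads among them is uncertain. IFITM1, MX2, a nuclear pore-associated inhibitor of retroviruses, and RSAD2, which encodes viperin, were under the minimum. MX2 lay between 2.09 and 10.5 normalized counts and IFITM1 between 1.60 and 3.14. RSAD2 had 1 read in each Vector library and 0 in each shEZH2 library, which gives no measurable difference at this depth.

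The remaining interferon-induced genes moved in both directions. IFI6 (ENSG00000126709, chr1:27666061-27672218, minus strand), a small protein of the endoplasmic reticulum and mitochondria that protects cells from flaviviruses and apoptosis, had 221, 166 and 224 normalized counts in the Vector libraries and 377, 279 and 277 in the shEZH2 libraries. All shEZH2 libraries were above all Vector libraries. The log2 fold change was 0.60 ± 0.19 (unadjusted p = 0.0156, adjusted p = 0.126, limma), just past the fold threshold, and it was 0.47 without Vector replicate 2 and 0.46 without shEZH2 replicate 1, and 0.49 with the gene length trend removed, in each case not called. Just inside the threshold lay PARP14, at -0.56.

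SAMD9 (ENSG00000205413, chr7:93099513-93118023, minus strand), an interferon-induced protein that restricts poxviruses and slows translation, had 132, 147 and 115 normalized counts in the Vector libraries and 79.03, 91.03 and 77.3 in the shEZH2 libraries. All shEZH2 libraries were below all Vector libraries, and Vector replicate 2 was the highest by a small margin. Its log2 fold change came to -0.66 ± 0.18 (unadjusted p = 0.00623, adjusted p = 0.0822, limma). It was -0.58 without Vector replicate 2, narrowly under the fold threshold, with an adjusted p of 0.0387.

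IFI44 (ENSG00000137965, chr1:78649796-78664078, plus strand), a cytosolic protein induced by type I interferon, had 23.01, 11.6 and 18.3 normalized counts in the Vector libraries and 31.4, 24.8 and 34.4 in the shEZH2 libraries. The groups did not overlap, and its log2 fold change of 0.78 ± 0.33 had an unadjusted p of 0.0476 (adjusted p = 0.210, limma). The call was lost without Vector replicate 2, at 0.52, without Vector replicate 3, at 0.83, and without shEZH2 replicate 1, 2 or 3, at 0.74, 0.91 and 0.68. It was also lost in the DESeq2 fit and all 3 edgeR fits, at 0.74 to 0.76, with no minimum and with the length trend removed, or in 11 of 16 alternatives. IFI35, a cytosolic leucine zipper protein, had 541, 300.4 and 509 in Vector and 558, 463 and 520.3 in shEZH2. Its groups overlapped, and its log2 fold change was 0.23, or -0.03 without Vector replicate 2. IFI27 and IFI44L, which rise strongly in cells exposed to type I interferon, stayed at 0 to 10.5 normalized counts in all 6 libraries.

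**Figure D3:**
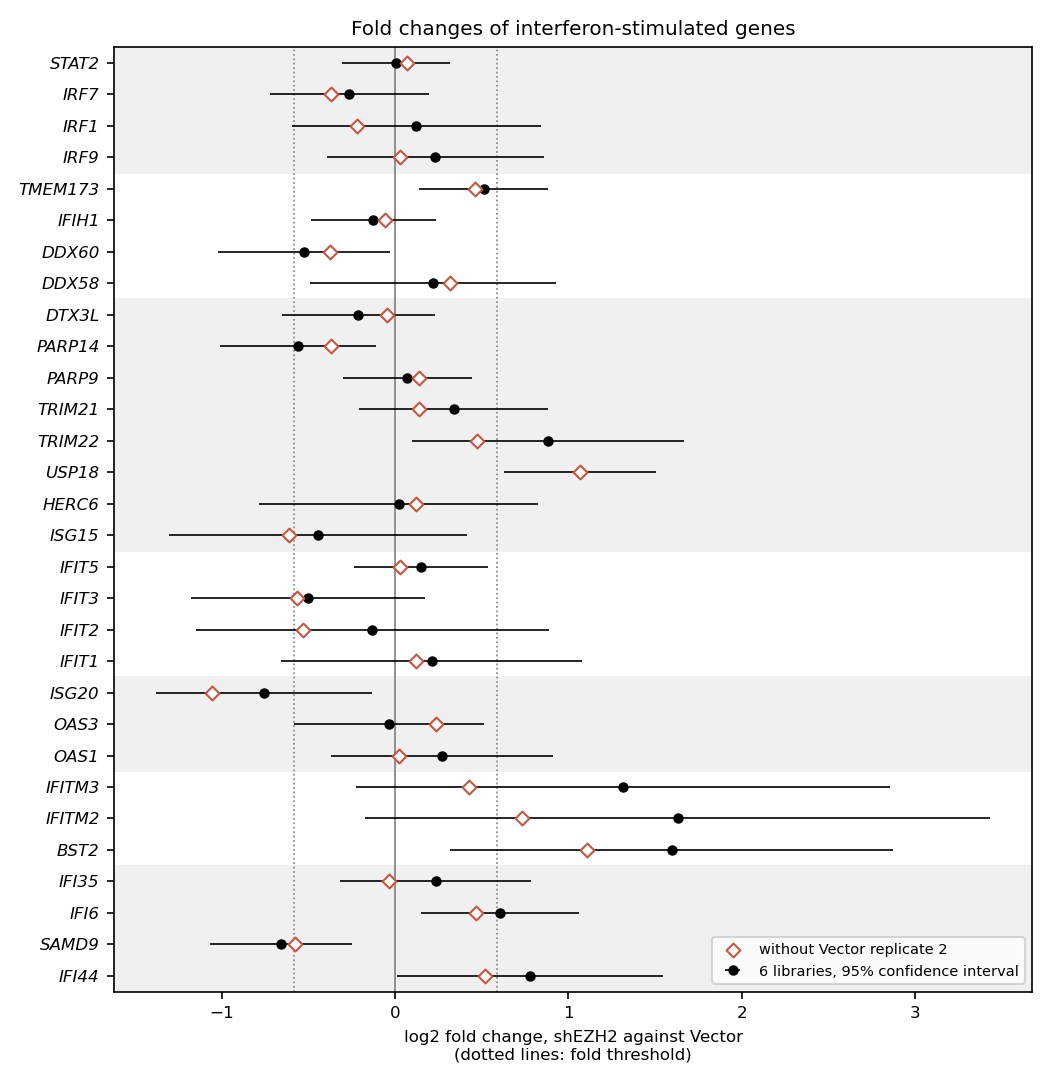
Log2 fold changes of the 30 tested ISGs, shEZH2 against Vector, as points with 95% confidence intervals from all 6 libraries and as open diamonds from the fit without Vector replicate 2. The dotted lines mark the fold threshold of 0.585, which the points of USP18, BST2 and IFITM2 pass on the higher side in both fits (IFITM2 was not called) and that of ISG20 on the lower side in both, while TRIM22, IFITM3, IFI6, IFI44 and, on the lower side, SAMD9 move inside it without Vector replicate 2. ISG15 moves outside it on the lower side, from -0.44 to -0.61, and was not called in either fit.

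Genes called higher and genes called lower both held the ISRE-like core. Of the 17 tested ISGs with a core in the promoter table, 3 were called higher, 2 lower and 12 were not called, with a median log2 fold change of -0.04 and a range from -0.76 to 1.60. The 7 without a core had a median of 0.22 (0.03 without Vector replicate 2, the same as for those with a core), and 0 were called. Among all 15251 genes tested, 14.6% were called in either direction, and the difference between 5 of 17 and 0 of 7 was not tested. The called genes with a core were IFI6, IFI44 and BST2 (higher) and ISG20 and SAMD9 (lower). BST2, at 1.60, entered the test only through its shEZH2 values, and IFI6, IFI44 and SAMD9 were not called without Vector replicate 2. For the other 6 no promoter was analysed, and 2 of these, USP18 and TRIM22, were called higher.

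Of 22 genes for interferons, 2 had a row in the table and the other 20 were not analysed here. Both were close to 0, and the higher of them by its mean, IFNE, the interferon of mucosal epithelium, had 0, 1.16 and 1.02 normalized counts in Vector and 0.952, 0 and 0.955 in shEZH2. IFNK, an interferon of keratinocytes, had 0, 2.33 and 0 in Vector and 0, 0.799 and 0 in shEZH2. These are at most 2 reads per library, and neither was tested.

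Receptors and kinases of the pathway were expressed, and 0 of the 9 tested passed the threshold in either direction, against 14.6% of all genes. Their median log2 fold change was -0.06 (JAK1 and JAK2 had an unadjusted p under 0.05 by limma, DESeq2 and edgeR). The receptor subunit with the most counts, IFNGR2 of the interferon gamma receptor, had 1004, 526 and 1034 in Vector and 879.8, 984 and 1012 in shEZH2. Apart from Vector replicate 2 its libraries lay between 879.8 and 1034, and the log2 fold change was 0.23, or -0.09 without that library. Of 17 genes of interferon induction with a row, 14 were tested and 0 were called or had an unadjusted p under 0.05, by limma, DESeq2 or edgeR, with a median of -0.10.

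Among the 11 tested negative regulators of the pathway, 1 was higher and 1 lower, or 18.2% together, against 14.6% of all genes. SOCS3, which inhibits JAK kinases, had 118, 97.8 and 126 in Vector and 205, 179.7 and 167 in shEZH2. All shEZH2 libraries of SOCS3 were above all Vector libraries, with a log2 fold change of 0.69 ± 0.17 (adjusted p = 0.0734, limma), and 0.58 without Vector replicate 2, which ended the call. SOCS3 lost the call in 2 alternatives, this one included. PTPN11, the phosphatase SHP2, which acts in growth factor signalling as well, had 6852, 10344 and 6679 in Vector and 3696, 4896 and 4575 in shEZH2. Here all shEZH2 libraries were below all Vector libraries, with a log2 fold change of -0.84 ± 0.21 (adjusted p = 0.0755, limma), or -0.63 without Vector replicate 2.

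A further list of 61 ISGs outside the 39 had 39 tested genes, of which 4 were higher and 2 lower (15.4% together, against 14.6% of all genes). The median log2 fold change of its tested genes was 0.11. The 4 with the smallest p were divided evenly. TDRD7, a Tudor domain protein that inhibits autophagy during viral infection, had 163, 176 and 206 in Vector and 263, 303 and 303 in shEZH2, and APOL6, an apolipoprotein L family member, had 322, 473 and 304 in Vector and 510.4, 616 and 636 in shEZH2. Both were higher in every shEZH2 library than in every Vector library, with log2 fold changes of 0.67 and 0.70, or 0.58 for APOL6 without Vector replicate 3, under the fold threshold. ZC3HAV1, the antiviral protein ZAP that binds CpG-rich RNA, had 1192, 2125 and 1281 in Vector and 717, 847 and 765 in shEZH2, and SLFN5 of the Schlafen family had 3358, 4356 and 3518 in Vector and 2145, 2555 and 2533 in shEZH2. Both were lower in every shEZH2 library, with log2 fold changes of -0.93 and -0.63, or -0.67 and -0.52 without Vector replicate 2. SLFN5 lost the call in 3 alternatives, among them the fits without Vector replicate 2 and without shEZH2 replicate 1, at -0.55. Over all pathway lists 5 of 73 tested genes were higher and 3 lower, or 10.96% together, against 14.6% of all genes. By limma 15 had an unadjusted p under 0.05 and 0 an adjusted one. DESeq2 gave an adjusted p under 0.05 for 7 (9.59%), against 10.8% of all genes, and edgeR with TMM factors for 0, against 4.45%. The libraries of both groups were fully separated in 29 of the 73 (39.7%, against 34.8% of all genes).

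**Figure D4:**
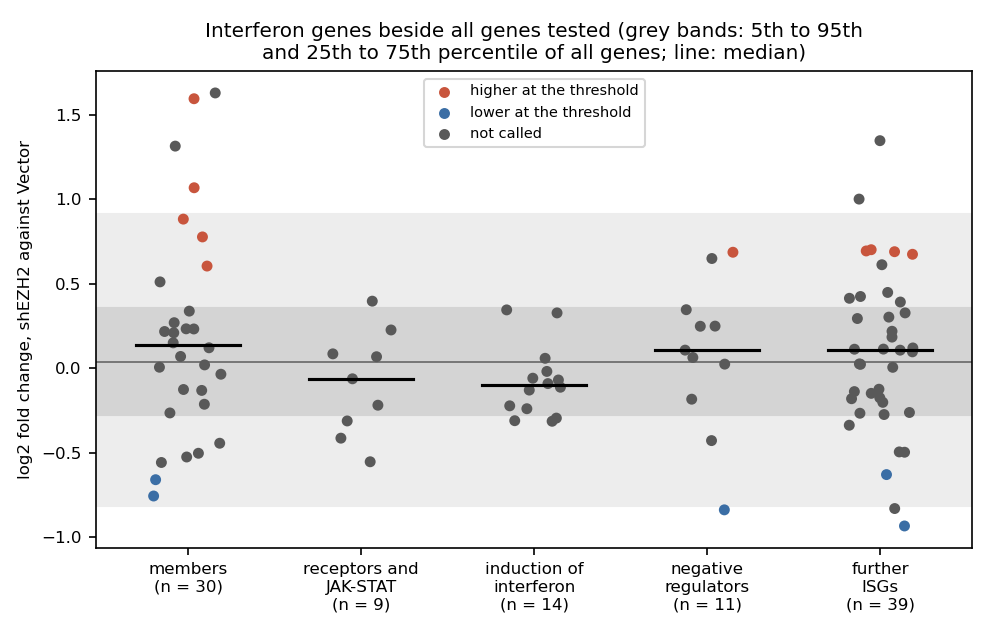
Log2 fold changes, shEZH2 against Vector, of the tested ISGs and of 4 lists of pathway genes, 1 point per gene (red, called higher; blue, called lower; grey, not called), with the list's median as a black bar. The grey bands hold the middle 50% and 90% of all 15251 genes, and the medians of the 5 lists, from -0.10 to 0.14, all lie inside the inner band.

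Markers were read beside these values. The melanocyte lineage genes SOX10, PMEL, TYR and DCT were each at 3097 normalized counts or more in every library, which fits the label of a melanoma line, and KIT was at 0 to 1.02. Of the 12 melanocyte genes tested, 2 were higher and 1 lower in shEZH2. Of 15 leukocyte markers, 8 had a row and 0 passed the minimum, with a summed level of 20.4 to 94.3 normalized counts in Vector and 41.1 to 43.9 in shEZH2. Among 6 fibroblast markers, DCN, PDGFRA, COL1A1 and COL3A1 were at 0 to 4.79 normalized counts, while LUM and FBLN1 were called higher in shEZH2, with a summed level of the list of 197 to 278 in Vector and 462 to 474 in shEZH2. Of the epithelial markers 3 were tested and 0 called, at a summed level of 1309 to 1723 in Vector and 1572 to 1681 in shEZH2, and of the endothelial ones 1 was tested and not called, at 24.4 to 74.5 and 24.8 to 28.7. Their part in the differences of the ISGs was not tested.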

How the data were processed

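RNA of 6 HMV-II libraries was sequenced on the Illumina platform after poly-T selection. The values in the deposited table are a signal: the authors counted the reads of each gene (featureCounts v1.5.0-p3) and divided them by a size factor (DESeq2 1.20.0). The table also holds group means and the authors' own fold changes and p-values, which were not used. The counted reads could be recovered, since 100% of values per library were whole multiples of 1 read (tolerance 0.01 reads). All 6 library columns were used. The submitters' notes name hg19, but the table's gene coordinates match GRCh38. Strand setting and the treatment of reads that match several genes are not given in the sources used here.

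Groups were compared with limma 3.58.1 (mean-variance trend, no replicate block) on log2(normalized count + 1). The fit covered 15251 genes, those whose mean reached 10, and p-values were adjusted over all of them by the Benjamini-Hochberg method. Fold changes are on that scale and understate those of low genes. A gene was called at the study's threshold, an unadjusted p under 0.05 and a log2 fold change above 0.585 in size. Nothing in the labels says that the libraries of a group came from separate cultures, so p-values measure the spread between these libraries only.

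The 39 genes, the role groups, the pathway and marker lists and the rule for naming genes (all called ones, those with a mean of at least 50, the highest 2 of each role group, and up to 4 called genes per pathway list) were chosen with earlier results of these data known. The alternatives were DESeq2 1.42.0 and edgeR 4.0.16 on recovered reads (with TMM, RLE or upper-quartile factors), TMM in limma, pseudocounts of 0.1 or 5, a minimum mean of 0 or 50, a replicate block, removal of a gene length trend, other thresholds, and each library left out. The models were tested on simulated data in which only genes with a mean of at least 50 were changed. These data held the same dispersion for all genes, no outlying library and no length trend. The test therefore does not cover low genes or a library such as Vector replicate 2. R 4.3.3, Python 3.11.15, pandas 2.3.3 and matplotlib 3.10.9 were used. Some genes are not reported here.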

Additional observations from a re-analysis of the deposited data

How the results depend on the processing

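The counts of called ISGs, 5 higher and 2 lower, depended on the setting. DESeq2 and edgeR with RLE or upper-quartile factors gave 4 and 3 (without IFI44 and with PARP14), and edgeR with TMM factors 4 and 2. With the gene length trend removed, 3 were higher. With a mean of at least 50 required, 20 ISGs were left to test and 3 of them were higher, as BST2 and IFI44 fell under that minimum. With a log2 fold change threshold of 1 the counts were 2 and 0. With an adjusted p at the threshold they were 1 and 0. Leaving out each library in turn gave 2 to 6 higher and 1 to 3 lower. By limma 1 ISG had an adjusted p under 0.05 and a higher level. This count was 0 with the length trend removed, with no minimum or with the replicate block. With a library left out it was 3 without Vector replicate 2 (USP18, IFITM3 and TMEM173) and 0 in the other 5 cases. In those 5 fits only 4 to 179 of all 15251 genes had an adjusted p under 0.05 by limma, and EZH2 itself did not, at 0.0553 to 0.128. Without Vector replicate 2 it was 2875 genes, or 18.9%. DESeq2 gave 2 on the lower side (ISG20 and SAMD9) and 1 on the higher side among the 30 tested ISGs. Of all genes, 10.8% had an adjusted p under 0.05 by DESeq2 in either direction. Leaving out a library gave 0 to 2 ISGs on the lower side by limma. Of the pathway genes, 5 were higher, against 3 with the length trend removed, 0 at the fold threshold of 1 or with an adjusted p, and 3 to 7 with a library left out, and 3 were lower, against 0 under both other thresholds and 2 to 4 with a library left out. The median log2 fold change of the ISGs was 0.14, and 0.025 to 0.28 with a library left out.

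The replicate block added the replicate number to the fit and gave 6 higher and 2 lower ISGs. The deviations from the group means of libraries with the same number correlated by 0.28, 0.22 and -0.11 over 15251 genes for numbers 1, 2 and 3, so the numbers were not taken to pair the libraries. Over all genes the block moved the count with an adjusted p under 0.05 from 629 to 424, with 2875 without Vector replicate 2 and 1644 by DESeq2.

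Of 619 fold changes of single genes under an alternative, 551 kept their direction and call, 31 lost the call, 15 gained it and 22 changed sign, and no called gene changed sign. STAT2 was at -0.018 with DESeq2, -0.018 with edgeR's RLE factors and -0.026 with upper-quartile factors, IFI35 at -0.029 and OAS3 at 0.082 with the length trend removed. With a library left out, the lowest and highest values were -0.037 and 0.071 for STAT2, -0.22 and 0.31 for IRF1, -0.53 and 0.20 for IFIT2, -0.034 and 0.39 for IFI35, -0.17 and 0.23 for OAS3, -0.0016 and 0.41 for DDX58, -0.012 and 0.19 for PARP9, -0.23 and 0.38 for HERC6, and -0.091 and 0.40 for IFNGR2. The shorter ISRE-like core, GAAANNGAA, lay in 22 genes as well, against 9.86% of all genes. Low counts limit BST2, IFITM2, IFIT1 and IFIT2, for which a few reads change the fold.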
